A study of Mus musculus with 17 samples.

Results

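The response of LGR5hi cells to gamma-irradiation was measured on 8 of the 17 arrays of the series, which were taken by their sample titles. LGR5hi cells, labelled as intestinal stem cells, carry the bright form of a green fluorescent reporter placed at the Lgr5 locus. They were sorted by flow cytometry from LGR5-GFPki mice, a knock-in line. All 8 arrays share that genotype, cell label and sorting, and 4 came from mice given 12 Gy and 4 from non-irradiated mice, at 3 hours. Each group held 2 female and 2 male samples, and on both slides 2 irradiated arrays lay beside 2 non-irradiated ones. The other 9 arrays hold LGR5lo cells, the dimmer sort, and are used only to compare the size of the response. The reporter set the gate, so Lgr5 RNA itself is read within a population chosen by green fluorescence. Total RNA of each sample, 50 ng per the labels, was labelled with Cy3 for single-colour Agilent mouse arrays. The labels do not say whether each array is a separate animal, so p-values measure the spread between these samples, which may be technical in part.

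The protein Lgr5 binds R-spondins, and cells that carry it at the crypt base divide often, depend on WNT signals and renew the epithelium. Ionizing radiation breaks both strands of DNA, the kinases ATM and ATR pass the signal on, and p53 is stabilised as a protein and switches on genes of cell cycle arrest, repair and death. Crypt stem cells are sensitive to radiation, and in the days after a high dose surviving epithelial cells rebuild the crypt.

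Values are log2 signals relative to the 75th percentile of the same array, so 0 is a probe at that percentile. Where 4 values are set against 4, they are non-irradiated replicates 1 to 4 against irradiated replicates 1 to 4. Over spots that percentile lay between 323 and 702 intensity units on the LGR5hi arrays, and on the 7 LGR5hi arrays that record it, 58.9% to 73.9% of spots counted as well above background. The scanner file of non-irradiated replicate 1 was readable only in part, so its values were rebuilt from the authors' deposited normalized values, and above-background calls cover 3 non-irradiated and 4 irradiated arrays. Ddx3y, a Y-linked gene, and Xist, the RNA of the silent X chromosome, matched the labelled sex on 8 of 8 arrays. Epithelial markers read high, with a list mean of 6.21 to 6.29 without irradiation and 6.54 to 6.92 after it. Epcam, the pan-epithelial surface protein, read 4.91, 4.89, 4.78 and 4.61 without irradiation and 4.68, 4.47, 4.44 and 4.61 after it. Ptprc, the leukocyte surface protein CD45, read -3.75, -4.43, -3.82 and -4.45 against -4.16, -4.57, -3.35 and -2.6, and 1 of 16 leukocyte markers was called, Cd79b at 1.41 ± 0.25. Over all gene names limma called 17.3%, the share to set beside the marker counts of this paragraph. The mean of the 16 leukocyte markers lay between -1.05 and -0.80 without irradiation and between -1.09 and -0.59 after it. Single members ran from -5.56 (Jchain) to 5.46 (Itgam) in the non-irradiated mean, and Cd4 (2.82), Csf1r (2.52) and Cd3e (2.30) also read high. The endothelial marker Kdr read 4.12. Whether these signals came from other cells was not tested. Of the 10 marker lists, the enterocyte genes varied most within a group. Sis, the sucrase of the absorptive brush border, read 1.24, 3.36, 5.16 and -0.08 on non-irradiated replicates 1 to 4 and 1.28, 0.34, 2.78 and 3.88 on the irradiated ones. The mean of 13 enterocyte markers spanned 1.10 to 4.80 and 1.26 to 3.65, and 1 of them was called (lower). Their part in the results was not tested. Markers of Paneth cells had list means of 5.69 to 6.42 and 6.53 to 7.22, which do not overlap, and 2 of 9 were called higher (Mmp7 and Pla2g2a). The Mmp7 call was lost when non-irradiated replicate 1, 2, 3 or 4 or irradiated replicate 1, 2 or 3 was left out (limma adjusted p 0.0669 to 0.107). The Pla2g2a call was lost when non-irradiated replicate 1, 3 or 4 or irradiated replicate 1 or 4 was left out (limma adjusted p 0.067 to 0.0817). None of 9 goblet markers was called, and 1 of 10 tuft cell markers was, Alox5 at 2.06 ± 0.30. Of 10 markers of stroma and endothelium 1, Des, was called higher. It was above background on 0 of 3 non-irradiated and 1 of 4 irradiated arrays, and at least 1.06-fold higher. Of 5 erythrocyte markers Hba-a1 (-1.17 ± 0.32) and Alas2 were called lower. Alas2 was above background on 1 of 3 non-irradiated and 0 of 4 irradiated arrays, at least 1.12-fold lower, and its difference turned to 0.03 with normexp background correction. The Hba-a1 call was lost when non-irradiated replicate 1, 2 or 3 or irradiated replicate 1, 2 or 4 was left out (limma adjusted p 0.0697 to 0.0902). The Alas2 call was lost when non-irradiated replicate 1, 3 or 4 or irradiated replicate 1, 2, 3 or 4 was left out (limma adjusted p 0.0574 to 0.113).

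At 3 hours after 12 Gy, limma called 4801 of 27768 gene names, which is 17.3% of them. There were 2180 higher (7.85%) and 2621 lower (9.44%). These 2 shares are to be set beside every count of gene list members below. By measured difference the rises were the larger changes, since 223 called names were at least 8-fold higher and 22 at least 8-fold lower. Both counts include names never above background in 1 group, for which only a bound of the kind given below holds. Col4a1 was 8.99-fold higher as measured and at least 4.65-fold by its bound. Cenpf was 13.8-fold lower as measured and at least 6.44-fold by its bound. Over all names the median difference was -0.02 log2, with quartiles at -0.341 and 0.246. The median standard error was 0.197 log2. Within slide 1 (2 against 2 arrays) limma called 780 names and within slide 2, 478, and all 4801 names had the same sign on each slide. The shared sign is no separate test, since the names were called on these same arrays. Of them, 2113 higher and 2539 lower had groups that did not overlap, which fixed their sign on each slide. With slide as a block limma called 5584 names. The groups of 4 did not overlap for 10.8% of names that were higher and for 13% that were lower. In bulk RNA of sorted cells, fewer cells of a kind and less RNA per cell cannot be told apart. The gene lists below and their members were chosen with earlier results of these data known. Their counts, medians and motif shares describe these arrays and are not separate support.

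**Figure D1:**
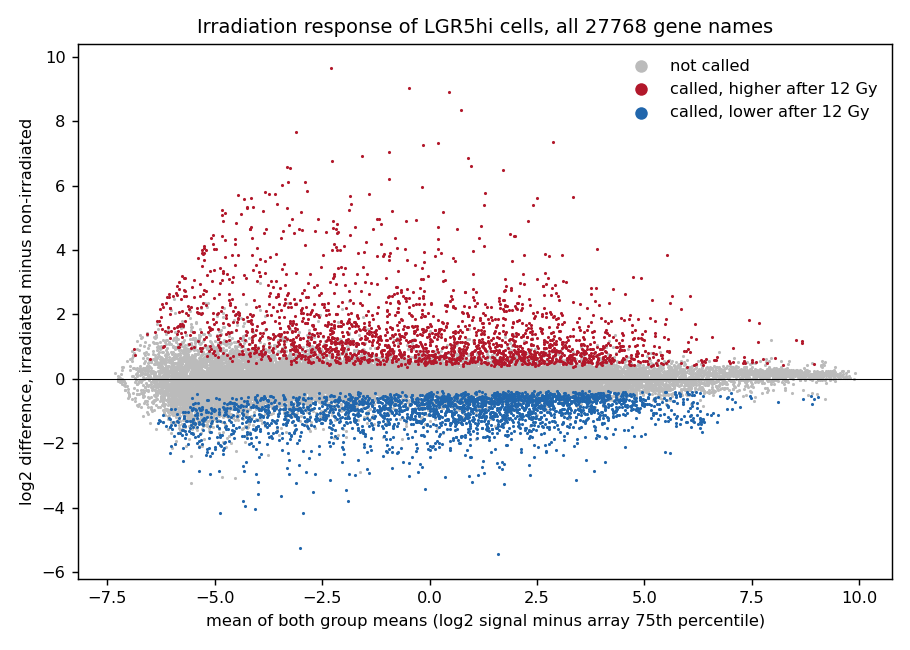
Each point is 1 of 27768 gene names, with the mean of both group means on the x axis (log2 signal relative to the 75th percentile of the array) and the log2 difference, irradiated minus non-irradiated, on the y axis. Red points are the 2180 names called higher and blue points the 2621 called lower (limma, adjusted p under 0.05); the upper cloud reaches farther from 0 than the lower one.

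Most genes of p53 feedback, arrest and death rose. Cdkn1a, which encodes the CDK inhibitor p21, read -0.82, 0.08, 0.87 and -0.82 on the non-irradiated arrays and 4.64, 5.08, 4.50 and 4.75 after 12 Gy. Every irradiated array lay above every control, with replicate 2 the highest, and the difference was 4.91 ± 0.37 log2 (SE of the limma fit, n = 4 and 4, adjusted p 8.58e-05). Its probe lies at mm9 chromosome 17, 29237377 to 29237436, and its 3 probes rose by 3.25 to 4.91. The promoter entries of RefSeq allow the start of the gene to be read. Of 14052 tested genes with such an entry, 8 hold, in the 250 bases before the start, a pair of p53 half-sites at most 13 bases apart, and 2 of these are Cdkn1a and Itm2a. Both promoters are shown from 5′ to 3′ on the strand of the gene, with the p53 motif in capitals, to set the letters beside the 2 strong rises. The Cdkn1a entry, 1 of 2 for that gene, is at chr17:29090729-29090978 (plus strand) and Itm2a at chrX:107403361-107403610 (minus strand) of GRCm38.p6.
Cdkn1a: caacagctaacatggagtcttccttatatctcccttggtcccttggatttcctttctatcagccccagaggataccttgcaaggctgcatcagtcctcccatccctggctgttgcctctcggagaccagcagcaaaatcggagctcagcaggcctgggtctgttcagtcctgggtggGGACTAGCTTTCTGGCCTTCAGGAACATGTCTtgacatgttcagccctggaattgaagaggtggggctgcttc
Itm2a: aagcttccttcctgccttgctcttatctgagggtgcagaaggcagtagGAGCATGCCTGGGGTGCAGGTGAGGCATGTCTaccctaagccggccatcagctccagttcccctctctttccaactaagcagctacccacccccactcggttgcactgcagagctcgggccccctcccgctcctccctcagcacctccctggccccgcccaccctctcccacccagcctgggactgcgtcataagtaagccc
Itm2a encodes a membrane protein and was above background on no non-irradiated array, and it was at least 20-fold higher after irradiation. Where a group had no array above background, a fold is given as such a bound: the bright group's mean against, on each array of the dim group, the higher of the lowest signal counted as above background and the probe's own. The other 6 genes with the motif included 1 called lower, Sptbn4 at -0.52 ± 0.14 (0.02 with normexp background correction), and 1 unnamed transcript that rose, and the remaining 4 were not called. Itm2a, Sptbn4 and the motif count were looked up after the values were seen. The motif was searched on both strands by exact match to its consensus, and it was found in 1 of the 60 promoters of the p53 lists, that of Cdkn1a. Sites that miss the consensus by a letter are neither counted nor in capitals, so these counts do not tell how many promoters hold a p53 site. The Sptbn4 call was lost when non-irradiated replicate 1, 2 or 3 or irradiated replicate 1, 3 or 4 was left out (limma adjusted p 0.0668 to 0.105).

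Among 16 genes that tune p53, 10 rose and none fell, with a list median of 0.80 log2 against -0.02 over all names. Mdm2, the ubiquitin ligase that removes p53, read 3.22, 3.23, 3.27 and 2.88 against 6.0, 6.98, 6.10 and 6.15, with replicate 2 the highest (difference 3.15 ± 0.23, limma adjusted p 6.67e-05). Ccng1, a cyclin that recruits a phosphatase to Mdm2, moved from 1.86, 1.90, 1.83 and 1.92 to 5.71, 6.27, 5.78 and 5.88, a difference of 4.03 ± 0.14. Zmat3, an RNA-binding protein (3.84 ± 0.15), and Trp53inp1, a stress protein of autophagy and death (3.80 ± 0.26), rose too. Mdm4 rose by 1.82, and Ppm1d, the phosphatase that resets the damage kinases, by 1.07. RNA of Trp53 itself read 1.13, 0.88, 0.41 and 0.80 against 1.39, 0.96, 0.92 and 1.05, groups that overlap, and its difference of 0.27 ± 0.18 did not pass the test. The relatives Trp63 (0.14 ± 0.16) and Trp73 (0.21 ± 0.16) did not pass either. The Ppm1d call was lost when non-irradiated replicate 2 or 4 was left out (limma adjusted p 0.0585 to 0.0629).

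The arrest genes had the higher median, 1.84 log2, with 8 of 11 called higher and none lower. Rprm, whose product Reprimo holds cells in G2, was above background only after 12 Gy and at least 40.6-fold higher. Plk2, a polo-like kinase induced by stress, read -3.63, -3.79, -3.56 and -3.85 against 1.02, 2.05, 0.90 and 1.07, with replicate 2 again the highest (difference 4.97 ± 0.25). Gtse1, a G2 and S phase protein that binds p53, rose by 2.81 ± 0.22, Plk3 by 2.30 ± 0.22, and Btg2, an antiproliferative co-regulator of RNA decay, by 1.84 ± 0.21. Sfn (14-3-3 sigma) at 1.13 ± 0.27 and Gadd45a at 0.82 ± 0.23 passed with smaller rises. The 3 members not called were Btg1, E2f7 and Ccnk. Btg1 read 0.12 on the probe used and 1.17 on its other probe. The Sfn call was lost when non-irradiated replicate 1 or 3 or irradiated replicate 1 or 4 was left out (limma adjusted p 0.0513 to 0.0559). The Gadd45a call was lost when non-irradiated replicate 1, 2 or 4 or irradiated replicate 2, 3 or 4 was left out (limma adjusted p 0.0537 to 0.109).

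Death genes under p53 had the highest median of the 47 lists, 2.30 log2, and 14 of 17 rose and 1 fell. Phlda3, which restrains the survival kinase AKT, read 0.49, 0.26, 0.40 and 0.91 against 6.07, 6.65, 6.01 and 5.96 (difference 5.66 ± 0.21, limma adjusted p 2.87e-06). Bbc3, which encodes PUMA, read 1.58, 0.87, 0.76 and 1.01 against 4.21, 4.98, 4.22 and 3.94, a difference of 3.29 ± 0.26. Bax, the pore-forming effector, read 3.45, 3.45, 2.90 and 3.17 against 5.99, 6.18, 5.60 and 5.74, a difference of 2.64 ± 0.18. In each of these 3 genes the groups lay at least 2 log2 apart and irradiated replicate 2 was the highest array. The death receptor gene Tnfrsf10b rose by 2.37 ± 0.18, the PIDDosome scaffold Pidd1 by 2.41 ± 0.14 and the nuclease Aen by 2.36 ± 0.17. Eda2r, a TNF receptor family member, was above background only after irradiation, at least 6.24-fold higher.

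Beside the counts that follow here, 7.85% of all names were called higher and 9.44% lower. In the wider BCL2 family 7 of 13 death-promoting genes rose and 2 fell. Besides Bbc3 and Bax, Pmaip1 (NOXA) rose by 2.30 ± 0.25, Bok by 1.62 ± 0.17, Bid by 1.14 ± 0.24, Bik by 1.03 ± 0.19 and Bcl2l11 (BIM) by 0.76 ± 0.21. Bmf, a BH3-only gene that answers to loss of attachment, fell instead, from -0.23, -0.71, -0.61 and 0.22 to -3.17, -2.30, -2.53 and -2.38 (difference -2.26 ± 0.26, adjusted p 0.000743 in limma). Bcl2l14 fell (-0.96 ± 0.15). Bak1, Bad, Hrk and Bcl2l13 were not called, with differences between -0.97 and -0.32. Of 10 survival genes, Birc3 (cIAP2) rose by 1.60 ± 0.24 and Mcl1 by 0.61 ± 0.13, and Birc5 (survivin, also a mitotic protein) fell (-1.40 ± 0.18). Bcl2 (0.27 ± 0.21), Bcl2l1 (0.53 ± 0.16) and Xiap (-0.23 ± 0.11) did not pass. Bcl2l1 passed without irradiated replicate 4 and Bcl2l13 without irradiated replicate 2 (limma adjusted p 0.0108 and 0.0479). Among 17 caspases and apoptosome genes, 6 rose and 3 fell, and 3 rose when non-irradiated replicate 1, 2 or 4 or irradiated replicate 3 was left out. Casp14, better known from the skin, rose most, from -1.27, -1.48, -0.83 and -1.18 to 3.57, 3.92, 3.26 and 3.54 (difference 4.76 ± 0.19). Apaf1, the apoptosome scaffold, rose by 1.39 ± 0.13 and Casp4 by 1.12 ± 0.12, while Casp6 (-1.37 ± 0.19), Casp2 (-0.52 ± 0.11) and Casp9 (-0.50 ± 0.12) fell. In the TNF family 10 of 23 genes rose and 2 fell. Tnfrsf12a, the TWEAK receptor, rose by 3.12 ± 0.28 and Tnfrsf1b (TNF receptor 2) by 1.51 ± 0.20. Tnfsf10, the ligand TRAIL, fell from 3.07, 3.00, 2.80 and 2.61 to 0.60, 0.16, 0.52 and -0.29, a difference of -2.62 ± 0.22, in the same arrays in which its receptor gene Tnfrsf10b rose. Tnfrsf25 fell (-2.40 ± 0.27). The Bcl2l11 call was lost when non-irradiated replicate 1, 2 or 3 or irradiated replicate 1, 2 or 3 was left out (limma adjusted p 0.0558 to 0.0998). The Casp9 call was lost when non-irradiated replicate 1 or 2 or irradiated replicate 1 was left out (limma adjusted p 0.052 to 0.0631).

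The metabolic targets of p53 split. Of 16 tested, 9 rose and 3 fell, with a median of 1.35 log2, where 7.85% of all names were called higher and 9.44% lower. Gdf15, a stress hormone, read 0.09, -0.37, -0.22 and -0.68 against 5.28, 5.98, 4.93 and 5.09 (difference 5.62 ± 0.26). Cpt1c, a carnitine palmitoyltransferase relative, rose by 5.24 ± 0.18 and the proline pathway enzyme Aldh4a1 by 4.66 ± 0.38. The epoxide hydrolase Ephx1 rose by 3.12 ± 0.21 and the lipid phosphatase Lpin1 by 2.38 ± 0.26. Second probes of Ephx1 and Lpin1 each rose by 1.61, and that of Cpt1c by 7.41. The sestrins, stress proteins that dampen mTORC1, went 3 ways. Sesn2 rose from 1.85, 1.82, 1.40 and 1.38 to 4.48, 4.49, 4.18 and 4.02, a difference of 2.68 ± 0.18. Sesn3 fell from 1.22, 0.97, 1.28 and 0.99 to -0.96, -0.70, -1.21 and -0.99, a difference of -2.08 ± 0.15. Sesn1 was not called (0.05 ± 0.25). Dhrs3, a retinal reductase (-2.07 ± 0.18), and Pank1, a coenzyme A enzyme (-1.16 ± 0.19), fell. Gls2, Ddit4 and Tigar were not called.

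Repair genes did not rise as a class. Beside the counts that follow, 7.85% of all names were called higher and 9.44% lower. Of 14 repair genes reported under p53, 4 rose and 3 fell. The rises were in Polk, a bypass polymerase (-1.90, -1.94, -1.29 and -1.78 to 0.71, 0.90, 1.10 and 1.20, difference 2.70 ± 0.18), Ercc5, the XPG nuclease (2.03 ± 0.16), Mgmt, which removes alkyl groups from guanine (2.61 ± 0.28), and Gadd45a. Ddb2, a damage sensor of excision repair (-0.80 ± 0.14), Fancc (-0.55 ± 0.12) and Rpa1, which coats single-stranded DNA (-0.43 ± 0.11), fell. In homologous recombination and the Fanconi pathway 12 of 32 fell and 2 rose. Bard1, the partner of Brca1 (-1.11 ± 0.15, with another of its 3 probes at -0.14), Rad54b (-1.15 ± 0.20) and Rad54l (-0.76 ± 0.10) fell, whereas the junction nuclease gene Mus81 rose by 1.52 ± 0.14, from -0.07, -0.18, -0.11 and 0.19 to 1.25, 1.69, 1.43 and 1.52. In end joining 5 of 17 fell and 1 rose (Parp3, 0.75 ± 0.21), and 2 or 3 fell when any non-irradiated replicate or irradiated replicate 3 or 4 was left out. Prkdc, the DNA-dependent protein kinase (-0.60 ± 0.13), and Polq (-0.79 ± 0.17) fell. In excision and mismatch repair 6 of 27 fell and 1, the glycosylase gene Mpg (0.84 ± 0.15), rose. Neil3 (-1.78 ± 0.32) and Pms1 (-1.18 ± 0.13) were among the falls. Of 26 damage sensors and checkpoint genes none rose and 8 fell, including Wee1, the kinase that restrains CDK1 (-0.93 ± 0.14), H2ax (-1.22 ± 0.20) and Mdc1 (-0.74 ± 0.16). The Fancc call was lost when non-irradiated replicate 1 or 4 or irradiated replicate 1 or 3 was left out (limma adjusted p 0.0504 to 0.057). The Rpa1 call was lost when non-irradiated replicate 1, 2 or 4 or irradiated replicate 1 or 3 was left out (limma adjusted p 0.0549 to 0.0836). The Parp3 call was lost when non-irradiated replicate 1, 3 or 4 or irradiated replicate 1, 3 or 4 was left out (limma adjusted p 0.0696 to 0.097).

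Genes of mitosis fell almost as a block. Of 36 regulators of mitotic entry 33 fell and none rose, with a median of -1.25 log2, and of 62 genes of kinetochore and spindle 52 fell and 2 rose, with a median of -1.30. The share of all names called lower was 9.44%. Ccnb2, a cyclin partner of CDK1, read 5.08, 4.62, 5.54 and 4.69 against 1.92, 1.75, 1.82 and 1.91, with the irradiated arrays between 1.75 and 1.92 (difference -3.13 ± 0.21, limma adjusted p 4.35e-05). Cdkn3, a CDK-associated phosphatase, read 1.88, 1.34, 1.93 and 1.20 against -1.79, -1.92, -2.03 and -1.54 (difference -3.41 ± 0.20). Their promoters are shown, from 5′ to 3′ on the strand of the gene, because the cell cycle homology region (CHR, letters TTTGAA) and the CCAAT box (letters CCAAT) are known elements of mitotic promoters. Both motifs are in capitals in either orientation, and no CHR overlaps a CCAAT box here. Ccnb2 is at chr9:70421555-70421804 (minus strand) and Cdkn3 at chr14:46760291-46760540 (plus strand) of GRCm38.p6.
Ccnb2: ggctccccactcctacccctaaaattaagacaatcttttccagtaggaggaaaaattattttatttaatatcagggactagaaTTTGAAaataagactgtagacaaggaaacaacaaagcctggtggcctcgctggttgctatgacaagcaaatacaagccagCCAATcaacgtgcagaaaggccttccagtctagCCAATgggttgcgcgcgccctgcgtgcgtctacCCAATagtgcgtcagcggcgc
Cdkn3: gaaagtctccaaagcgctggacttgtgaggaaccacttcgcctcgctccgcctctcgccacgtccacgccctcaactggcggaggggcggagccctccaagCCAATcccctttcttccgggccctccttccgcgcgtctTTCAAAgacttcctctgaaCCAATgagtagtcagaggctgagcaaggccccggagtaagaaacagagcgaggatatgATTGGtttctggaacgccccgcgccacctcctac
TTTGAA was found on either strand in 31 of the 83 mitosis promoters with an entry (37.3%) and in 14.3% of the promoters of 14052 tested genes. CCAAT was found in 57 of the 83 (68.7%) and in 39.5% of tested genes. A match describes the letters and is not evidence that a factor binds.

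Plk1, the polo-like kinase of mitosis, fell from 5.04, 4.71, 5.15 and 4.68 to 2.89, 2.08, 2.21 and 2.37, a difference of -2.51 ± 0.20. Plk2 and Plk3 of the same family rose, as given above. The CDK1-activating phosphatase genes Cdc25c (-3.51 ± 0.37) and Cdc25b (-2.73 ± 0.22) fell, as did Aurka (-2.25 ± 0.20), Ccnb1 (-2.04 ± 0.17) and Cdk1 itself (-1.14 ± 0.18). Among structural genes, Cenpf, a kinetochore protein, was above background on no irradiated array and at least 6.44-fold lower. Aspm, a spindle pole protein, read 2.03, 1.49, 2.39 and 1.61 against -1.07, -1.27, -1.31 and -0.93 (difference -3.03 ± 0.21). Nusap1 (-2.93 ± 0.22) and the centromeric histone gene Cenpa (-2.63 ± 0.21) fell. Mki67, the proliferation marker, moved from 6.09, 5.69, 5.97 and 5.72 to 4.11, 4.22, 4.01 and 4.30 (-1.71 ± 0.14), and Top2a from 3.44, 3.16, 3.95 and 3.42 to 2.03, 1.51, 2.02 and 2.40 (-1.5 ± 0.23). The non-irradiated replicates 1 and 3, both female, read above replicates 2 and 4, both male, in Ccnb2, Cdkn3, Aspm, Nusap1 and Ccnb1, and neither sex read above the other in these genes after irradiation.

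Replication genes fell less. Of 50 tested, 23 fell and none rose, with a median of -0.47 log2, and 15 fell when non-irradiated replicate 1 or 2 or irradiated replicate 1 was left out. Tk1, thymidine kinase (-1.49 ± 0.23), the helicase subunit gene Gins2 (-1.28 ± 0.14), Rfc2 (-0.95 ± 0.11) and Gmnn, which encodes geminin (-0.90 ± 0.12), fell. Another of the 3 Tk1 probes gave -0.16. Pcna, the sliding clamp, was not called and read 5.68, 5.88, 5.93 and 5.89 against 5.58, 5.57, 5.90 and 5.71. Of 19 histone and histone chaperone genes 13 fell and none rose, with a median of -0.86. H2ac4 went from 7.69, 7.28, 7.38 and 7.12 to 5.93, 6.26, 5.86 and 6.05 (-1.34 ± 0.16), and H2bc4 (-1.84 ± 0.17) and the linker histone gene H1f5 (-1.48 ± 0.23) fell. Among the genes of G1, 9 of 29 fell and 3 rose, where 9.44% of all names were called lower and 7.85% higher. Ccnd1 (cyclin D1) rose by 1.30 ± 0.25, with irradiated replicate 4 the lowest of 6.26, 6.41, 6.37 and 5.40. Rb1, the retinoblastoma gene, rose by 1.67 ± 0.22. The CDK inhibitor gene Cdkn1b (p27) fell from 3.71, 3.46, 3.77 and 3.1 to 2.19, 2.26, 1.79 and 1.89 (-1.48 ± 0.19), the opposite direction to Cdkn1a. The MYC family divided likewise: Myc rose by 0.66 ± 0.18, Mycl fell (-1.16 ± 0.12) and Mycn fell from -2.25, -2.87, -1.32 and -3.15 to -6.79, -4.97, -5.61 and -5.06 (-3.21 ± 0.50). The Myc call was lost when non-irradiated replicate 1 or 2 or irradiated replicate 1, 3 or 4 was left out (limma adjusted p 0.0803 to 0.108).

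**Figure D2:**
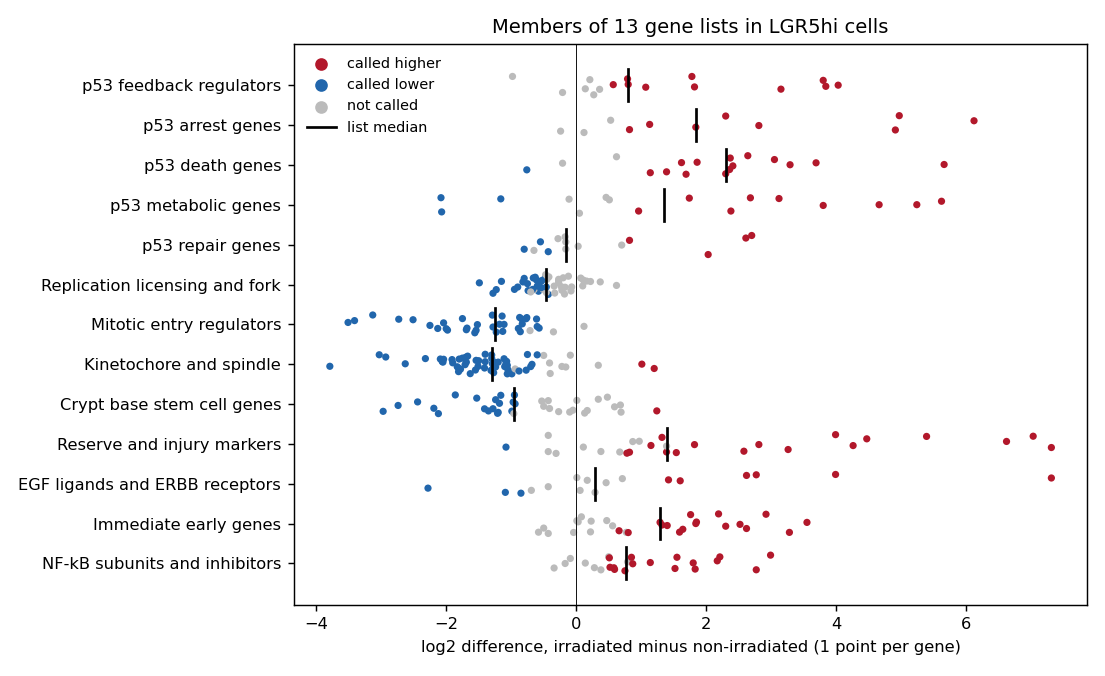
Log2 differences, irradiated minus non-irradiated, of the tested members of 13 gene lists, 1 point per gene, with height within a row spread only for legibility. The lists were chosen with earlier results of these data known. Red points were called higher, blue points lower and grey points neither (limma, adjusted p under 0.05), and black lines are list medians; the medians of the mitosis lists lie at -1.25 and -1.30 and that of the p53 death genes at 2.30.

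Genes of the crypt base fell, though not all. Of 36 tested, 19 fell and 1, Tnfaip8, rose, with a median of -0.95 log2. For all names the shares called were 9.44% lower and 7.85% higher. Lgr5 read 4.70, 3.99, 4.12 and 4.13 against 2.66, 3.15, 2.35 and 2.67, groups that do not overlap (difference -1.53 ± 0.22, limma adjusted p 0.00193). Its probe lies at mm9 chromosome 10, 114887403 to 114887462. Ascl2, the transcription factor of crypt stem cells, read 5.90, 5.86, 5.80 and 5.80 against 4.81, 5.44, 4.75 and 4.59 (-0.94 ± 0.19), and Smoc2 read 7.14, 6.83, 6.76 and 6.88 against 5.37, 6.25, 5.70 and 5.46 (-1.21 ± 0.20). In all 3 genes irradiated replicate 2 was the highest of the irradiated arrays. Olfm4 read 6.08, 6.19, 5.56 and 6.76 against 5.80, 5.85, 6.03 and 5.82 and was not called (-0.27 ± 0.23), and neither was Rnf43 (-0.10 ± 0.16). Larger falls were in Cdo1, a cysteine dioxygenase, from 2.60, 2.60, 2.68 and 2.57 to -0.45, -0.13, -0.39 and -0.44 (-2.97 ± 0.12), Soat1 (-2.74 ± 0.26), the urea transporter Slc14a1 (-2.44 ± 0.18) and Vdr, the vitamin D receptor (-2.12 ± 0.13). The Tnfaip8 call was lost when non-irradiated replicate 1 was left out (limma adjusted p 0.0522).

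Most listed marks of injured or reserve epithelium rose, with 17 of 27 higher, 1 lower and a median of 1.39 log2. Hopx and Bmi1, given below, did not rise. For all names the shares called were 7.85% higher and 9.44% lower. Ly6a (Sca-1), a surface protein of regenerating epithelium, read -2.64, -2.69, -2.19 and -1.81 against 4.86, 3.21, 4.50 and 4.57, with replicate 2 the lowest irradiated array (difference 6.62 ± 0.37, limma adjusted p 2.34e-05). The neighbouring family member Ly6c1 rose by 6.48 ± 0.36 on the probe used and by 3.21 on its other probe. Both are members of a multigene family whose probes may share signal. Clu, clusterin, read 1.17, 0.93, 0.89 and 1.27 against 2.75, 3.1, 2.01 and 1.96 (1.39 ± 0.27). Krt15, a keratin, rose by 5.39 ± 0.20, Anxa3 by 4.26 ± 0.32 and Anxa8 by 7.03 ± 0.24, although a second Anxa8 probe gave 2.89. Hopx, a marker of slowly cycling crypt cells, was the member that fell, from 4.03, 3.85, 4.44 and 4.35 to 3.05, 2.89, 3.23 and 3.17 (-1.08 ± 0.16). Bmi1 read 1.06, 0.99, 1.14 and 0.98 against 0.50, 0.77, 0.79 and 0.86 and was not called (-0.31 ± 0.12).

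Sfrp5, a secreted inhibitor that binds WNT ligands, had the largest called fall of any gene with a reviewed symbol. It read 4.48, 4.44, 4.36 and 3.97 against -1.77, -0.14, -1.13 and -1.52, a difference of -5.45 ± 0.33 log2 (limma adjusted p 3.04e-05), with replicate 2 the highest irradiated array. Of 24 ligand and inhibitor genes 5 rose and 4 fell, against 17.3% of all names called. Wnt10a, Wnt9a and Wnt10b were above background only after irradiation, at least 12.3-fold, 6-fold and 3.26-fold higher. Wnt7b rose by 1.91 ± 0.30 and Wnt6 by 1.18 ± 0.19. Among 18 receptors and ligases 6 fell and 2 rose: Fzd2 (-1.94 ± 0.20), Fzd4 (-1.30 ± 0.18), Fzd1 (-1.01 ± 0.16) and Znrf3 (-1.20 ± 0.17) fell and Ror2 (1.04 ± 0.15) rose. Of 31 transcription factors and targets 4 rose and 6 fell, with a median of -0.08. The feedback gene Axin2 (-0.99 ± 0.15) and Tcf7 (-0.71 ± 0.13) fell, while Cd44 rose from 2.92, 2.87, 2.99 and 3.37 to 4.88, 4.81, 4.96 and 5.04 (1.89 ± 0.14), with its 4 probes at 1.8 to 2.05.

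For comparison with the counts of this paragraph, 7.85% of all names were called higher and 9.44% lower. In the Notch pathway 4 of 35 genes rose and 5 fell, with a median of 0.01, and 3 fell when non-irradiated replicate 1 or 4 or any irradiated replicate was left out. Notch3 read -3.71, -3.49, -4.05 and -3.91 against 3.25, 4.03, 3.30 and 3.28 (difference 7.26 ± 0.21, limma adjusted p 1.27e-06), and the ligand genes Jag2 (4.2 ± 0.26) and Jag1 (1.39 ± 0.17) rose with it. Dll4 fell (-1.24 ± 0.19), and Lfng, which adds sugar to Notch receptors, fell from -0.24, -0.66, -0.52 and -0.21 to -3.05, -3.09, -3.34 and -3.97 (-2.95 ± 0.22). In the hedgehog pathway 1 of 13 rose and 2 fell. Dhh, a ligand better known from testis and nerve sheath, was above background on 0 of 3 non-irradiated arrays and on 4 of 4 irradiated ones, at least 60.4-fold higher. Ihh, the hedgehog ligand of the intestinal epithelium, fell (-0.93 ± 0.25). The pathway targets and receptors Gli1, Hhip and Ptch1 were not called. Gli1 and Hhip were above background on at most 1 array of each group, and Ptch1 had a difference of -0.50 ± 0.22. In BMP and TGF-beta signalling 4 of 28 rose and 4 fell. Tgfbr2 rose by 1.5 ± 0.20 and Tgfb2 by 1.79 ± 0.32, Smad6, an inhibitor of BMP signals, fell (-2.95 ± 0.39), and Id4 was above background on no irradiated array, at least 2.09-fold lower. The Ihh call was lost when non-irradiated replicate 2 or 3 or irradiated replicate 1, 2 or 3 was left out (limma adjusted p 0.0793 to 0.094).

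Several ligands of the EGF family rose. Areg, amphiregulin, read -2.21, -4.01, -3.34 and -4.24 against 4.61, 3.32, 3.69 and 3.81, a difference of 7.31 ± 0.46 log2 (limma adjusted p 3.45e-05), and non-irradiated replicate 1 was the highest control. Ereg, epiregulin, read -3.48, -4.87, -3.08 and -5.17 against -0.12, 0.18, -0.53 and -0.19 (3.99 ± 0.46), and was above background on 1 of 3 control arrays. Hbegf read 0.63, -0.26, 0.55 and 0.50 against 3.12, 3.06, 2.95 and 3.39 (2.77 ± 0.21), and Btc, betacellulin, rose by 2.62 ± 0.27. Errfi1, which blocks the EGF receptor from inside the cell, rose by 1.60 ± 0.18. Nrg4, a ligand of ERBB4, fell (-2.28 ± 0.21). In all, 6 of 17 EGF family genes rose and 3 fell, where 7.85% of all names were called higher and 9.44% lower. Of 20 feedback genes of the MAPK cascade downstream, 10 rose and 2 fell, with a median of 1.17. They include the phosphatases Dusp14 (2.96 ± 0.15) and Dusp8 (1.62 ± 0.28) and the ETS factor Etv4 (3.09 ± 0.27).

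Of 29 immediate early genes 17 rose and none fell (median 1.29), and of 16 AP-1 genes 9 rose and none fell (median 0.60). For all names the shares called were 7.85% higher and 9.44% lower. Fosl1, which encodes FRA1, read -3.60, -3.62, -3.76 and -3.61 against 1.21, 1.40, 1.29 and 1.33 (difference 4.95 ± 0.11, adjusted p 5.53e-07 in limma). Fos rose by 1.79 ± 0.38, Junb by 2.10 ± 0.18 and Atf3 from 0.29, -1.74, -0.31 and -0.55 to 1.34, 1.40, 1.96 and 2.01 (2.25 ± 0.40). Jun (0.03 ± 0.31) and Fosb (0.34 ± 0.30) were not called. Arc rose by 3.55 ± 0.26, Ier3 by 2.62 ± 0.30 and Csrnp1 by 1.85 ± 0.25. Egr4 rose by 3.28 ± 0.44 and was above background on 1 of 3 controls. The control arrays of Fos, Atf3 and Ier3 were spread, with non-irradiated replicate 2 the lowest in each. In each of these genes both female controls read above both male ones, in Fos 1.81 and 1.93 against 0.30 and 0.57.

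NF-kB genes rose as a group. Of 24 subunits and regulators 16 rose and none fell, with a median of 0.77 log2. For all names the shares called were 7.85% higher and 9.44% lower. Nfkb2 (p100) read 0.53, 0.52, 0.61 and 0.36 against 3.28, 3.16, 3.25 and 3.44 (difference 2.77 ± 0.12, limma adjusted p 5.47e-06), and Nfkbia, which holds NF-kB in the cytoplasm, read 4.97, 4.84, 4.73 and 4.54 against 7.0, 6.83, 6.79 and 7.11 (2.17 ± 0.14). Ikbke rose by 2.21 ± 0.20, Nfkbie by 1.52 ± 0.14, Relb by 1.14 ± 0.15 (another of its probes gave 0.03) and Tnip3 by 2.99 ± 0.32. Of 27 cytokine and chemokine genes 11 rose and 2 fell. Cxcl1, Cxcl5 and Lif were above background only after irradiation, at least 12.1-fold, 12.2-fold and 6.87-fold higher. Cxcl16 went from -1.47, -1.81, -1.74 and -1.76 to 2.53, 1.91, 2.23 and 2.19 (3.91 ± 0.16) and Csf1 from -1.22, -1.68, -1.61 and -2.01 to 1.42, 1.58, 1.81 and 1.46 (3.20 ± 0.18). Cxcl10, taken for its promoter after its value was seen, rose by 5.95 ± 0.84 and was above background on 2 of 3 controls. Ccl25, the chemokine of the small intestine, fell (-1.5 ± 0.18), although another of its 4 probes gave -0.06. The promoters of Nfkb2 and Cxcl10 are printed, 5′ to 3′ on the gene's strand, because each holds 3 matches to the NF-kB motif, searched on both strands and shown in capitals. Where matches overlap they form 1 capital stretch. The Nfkb2 entry is 1 of 3 for that gene and was chosen by its number of matches. Nfkb2 is at chr19:46304487-46304736 (plus strand) and Cxcl10 at chr5:92348890-92349139 (minus strand) of GRCm38.p6.
Nfkb2: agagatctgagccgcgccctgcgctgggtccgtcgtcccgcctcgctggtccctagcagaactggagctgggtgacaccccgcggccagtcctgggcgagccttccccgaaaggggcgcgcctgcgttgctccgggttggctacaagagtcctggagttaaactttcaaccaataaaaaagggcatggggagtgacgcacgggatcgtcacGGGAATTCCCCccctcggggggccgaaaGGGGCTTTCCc
Cxcl10: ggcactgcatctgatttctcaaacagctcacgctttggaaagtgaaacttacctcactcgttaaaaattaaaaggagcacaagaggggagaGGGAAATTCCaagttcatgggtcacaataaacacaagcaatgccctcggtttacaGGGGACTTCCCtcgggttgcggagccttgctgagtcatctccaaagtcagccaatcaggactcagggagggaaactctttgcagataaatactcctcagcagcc
The motif was found in 9 of 19 NF-kB list promoters (47.4%) and in 7.9% of the promoters of 14052 tested genes. Here and for the motifs above, a gene counted if any of its promoter entries held the motif.

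Interferon genes went both ways. Of 35 tested, 7 rose and 4 fell, with a median of 0.01, where 7.85% of all names were called higher and 9.44% lower. Mx1 rose by 4.65 ± 0.46 and was above background on 1 of 3 controls. Nlrc5, a regulator of MHC class I, rose by 2.47 ± 0.35 with Tap1, the peptide transporter (1.62 ± 0.24). The second Nlrc5 probe rose by 0.92. Ifih1 (-0.66 ± 0.12) and Oasl2 (-0.98 ± 0.18) fell. None of 8 MHC class II genes was called. H2-Ab1 read 7.21, 7.32, 6.51 and 7.41 against 6.92, 6.47, 6.99 and 7.74, groups that overlap.

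Respiratory chain and ribosomal protein genes were mostly outside the calls. Of 37 respiratory chain genes none was called, and the list median was -0.16 log2. Of 38 ribosomal protein genes 1 was called, Rps27l (0.96 ± 0.20), which is also a p53 target. Of 40 ribosome biogenesis genes 12 rose and none fell, with a median of 0.46. That count was between 5 and 7 when non-irradiated replicate 1 or 2 or irradiated replicate 1, 3 or 4 was left out. Utp20, of the small subunit processome, read 0.56, 0.67, 0.57 and 0.62 against 2.29, 2.50, 2.56 and 2.46 (1.85 ± 0.11), and Rrn3, a polymerase I factor, rose by 1.06 ± 0.13. Of 16 cytosolic chaperone genes 1, Hspa4l, was called (-1.09 ± 0.28). Hspa1a split the controls by labelled sex, at -3.74 and -4.70 in the females (replicates 1 and 3) and -0.68 and -0.79 in the males. Of 23 genes of the unfolded protein response 1 rose and 1 fell, and of 31 genes of the integrated stress response 5 rose and 2 fell. Antioxidant genes rose in 9 of 27 cases and fell in none. Gclc, which limits glutathione synthesis, rose by 1.76 ± 0.16, Srxn1 by 1.76 ± 0.21, Hmox1 by 2.50 ± 0.15, with its other probe at 0.66, and Txnrd1 by 1.26 ± 0.17. In glycolysis 4 of 22 rose and 5 fell. Ldhb went from -0.83, -1.48, -1.39 and -1.30 to 2.21, 3.67, 1.86 and 1.95 (3.67 ± 0.39), with replicate 2 the highest, and Pfkfb3 rose by 2.45 ± 0.29, while Pfkm fell (-1.07 ± 0.16). In sterol synthesis 3 of 24 rose and 4 fell. Beside the counts of this paragraph, 7.85% of all names were called higher and 9.44% lower. The Hspa4l call was lost when non-irradiated replicate 2, 3 or 4 or irradiated replicate 1, 2 or 4 was left out (limma adjusted p 0.0514 to 0.0762).

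Many genes of attachment and the cytoskeleton rose. Of 36 adhesion genes 17 rose and 3 fell, with a median of 0.53, where 7.85% of all names were called higher and 9.44% lower. Plaur, the urokinase receptor, read -3.28, -3.12, -2.64 and -2.06 against 2.22, 1.99, 1.92 and 2.51 (4.94 ± 0.27), and the laminin gene Lama5 (2.56 ± 0.18) and the integrin gene Itgb6 (1.97 ± 0.11) rose. Col4a1 was above background only after irradiation, at least 4.65-fold higher. Cldn15, a claudin of the intestinal tight junction, fell from 5.80, 5.93, 5.64 and 5.87 to 3.93, 4.08, 3.95 and 4.21 (-1.77 ± 0.12). Of 34 cytoskeletal genes 13 rose and 3 fell. The epithelial keratin genes Krt8 (1.17 ± 0.12), Krt18 (1.21 ± 0.14) and Krt19 (1.15 ± 0.14) rose. Tubb6, a tubulin, read -2.87, -3.70, -3.49 and -3.77 against 4.62, 5.59, 4.92 and 4.45 (8.35 ± 0.29), while Tubb2b fell (-2.01 ± 0.22).

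Of 30 transcription factors of epithelial identity 7 fell and 2 rose, where 9.44% of all names were called lower and 7.85% higher. Hnf4a, the factor of the absorptive lineage, fell from 7.20, 7.24, 7.33 and 7.11 to 6.65, 6.74, 6.71 and 6.55 (-0.56 ± 0.11), and Foxa2 (-1.12 ± 0.19), Nr5a2 (-1.20 ± 0.23) and Ppara, a regulator of fat oxidation (-2.35 ± 0.33), fell too. Of the 3 Ppara probes 1 gave -0.32. Of 14 enteroendocrine markers 2 rose and 2 fell: Tac1 (1.62 ± 0.29) and the serotonin enzyme gene Tph1 (1.24 ± 0.31) rose, and Nts, neurotensin, fell from -3.22, -2.6, -0.60 and -0.19 to -4.49, -5.57, -5.12 and -5.98 (-3.64 ± 0.69) with Neurog3 (-0.64 ± 0.19), whose second probe gave 0.08. The Tph1 call was lost when non-irradiated replicate 1, 2 or 4 or irradiated replicate 1 or 4 was left out (limma adjusted p 0.0593 to 0.0784). The Neurog3 call was lost when non-irradiated replicate 1, 2, 3 or 4 or irradiated replicate 1, 2, 3 or 4 was left out (limma adjusted p 0.0607 to 0.127).

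**Figure D3:**
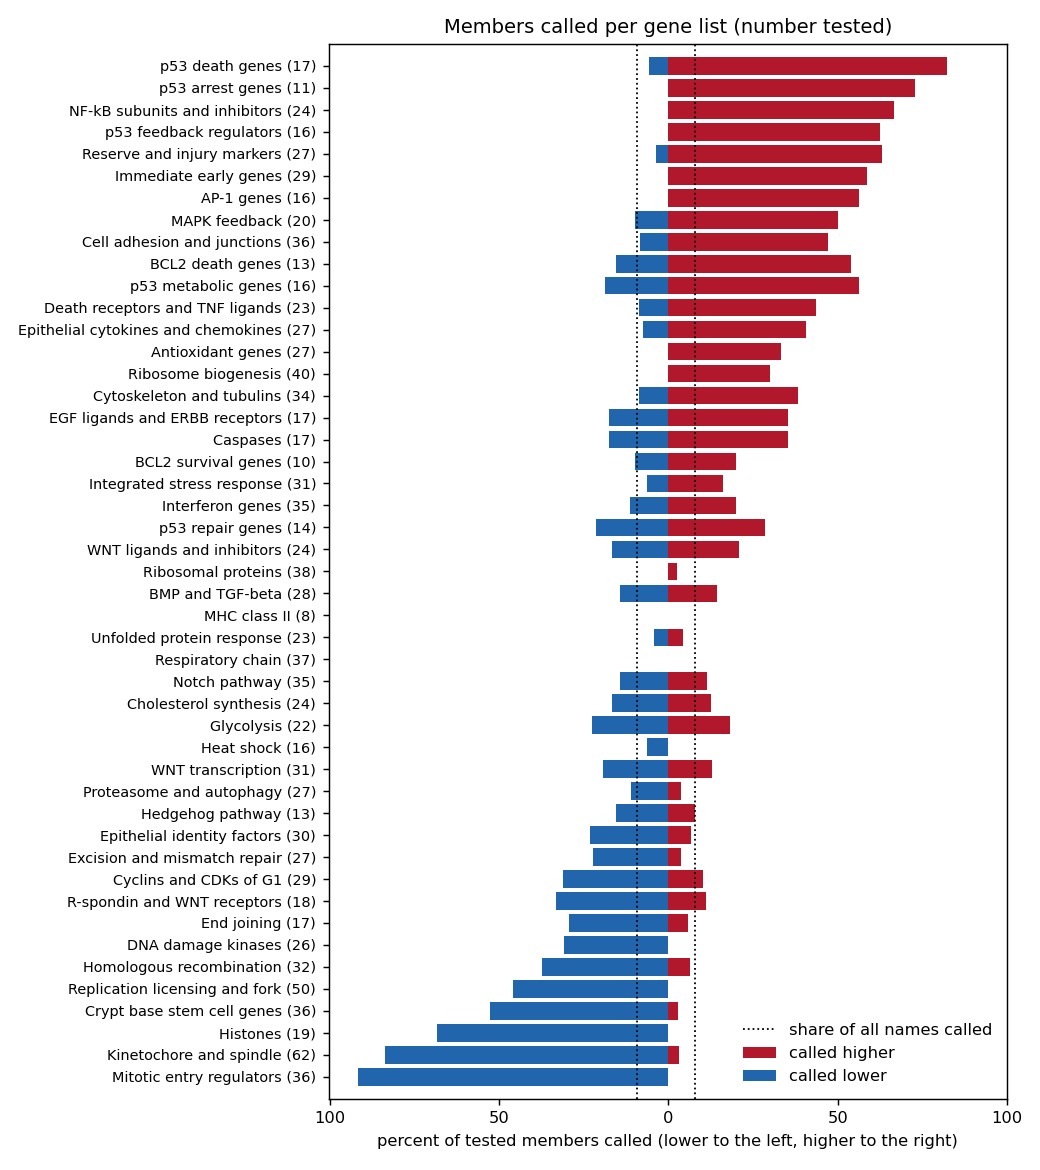
Share of the tested members of each of 47 gene lists that limma called higher (red, to the right) or lower (blue, to the left) after 12 Gy, in percent, with the number tested in parentheses. The lists were chosen with earlier results of these data known. Dotted lines mark the shares of all 27768 names, 7.85% higher and 9.44% lower; the p53 death, p53 arrest and NF-kB lists reach farthest right and the mitosis lists farthest left.

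Several of the strongest rises were in genes outside those lists. Zfp365, a zinc finger gene of fragile site stability, read -4.63, -4.79, -4.40 and -6.16 against 3.79, 4.64, 4.09 and 3.67 (9.04 ± 0.39, limma adjusted p 5.87e-06), although it was above background on only 1 of 3 controls. Slc4a11, a membrane transporter, read -3.59, -4.22, -4.11 and -4.11 against 5.30, 4.90, 5.05 and 4.37 (8.91 ± 0.23). Crip2, a LIM protein, went from -0.73, -1.06, -0.61 and -0.80 to 6.48, 7.10, 6.33 and 6.24 (7.34 ± 0.21), and Ltf, lactoferrin, from -2.96, -2.03, -3.23 and -1.94 to 4.44, 3.88, 4.23 and 4.71 (6.86 ± 0.33). Hic1, a transcriptional repressor, rose by 6.91 ± 0.44 with replicate 2 the highest, and its second probe rose by 3.64. On the probe used, Hic1 was above background on 1 of 3 controls. Inka2, Rln1 and Krt33a were above background only after irradiation, at least 78.3-fold, 35.6-fold and 37.8-fold higher. Zfp365, Crip2, Notch3, Tubb6, Hic1, Inka2, Rln1 and Krt33a share irradiated replicate 2 as the highest array, while in Areg, Ly6a, Ly6c1 and Ltf it was the lowest. Across the 4801 called names that replicate was the irradiated array farthest from its group's median in 42.7% of cases, against 13.1% to 25.6% for the other 3. Without it, limma called 4638 names, and without both it and non-irradiated replicate 1, 3218.

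**Figure D4:**
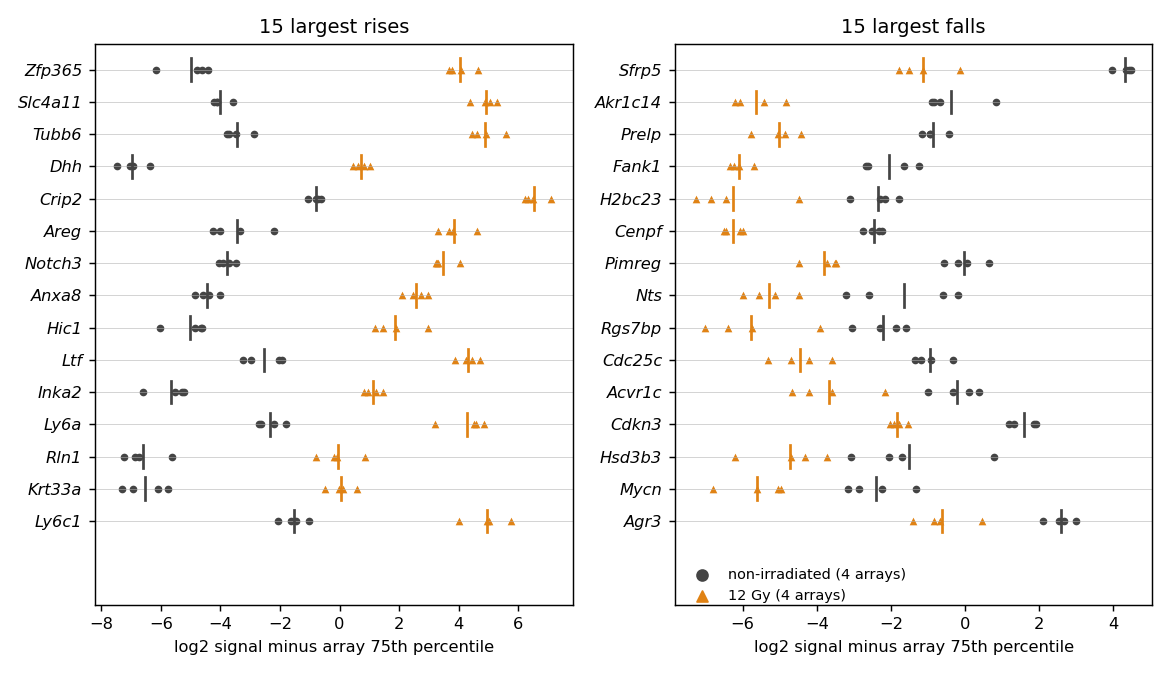
Values of the 15 genes with the largest called rises (left) and falls (right) among genes with a reviewed symbol, on the log2 scale relative to the 75th percentile of the array. Grey circles are the 4 non-irradiated arrays, orange triangles the 4 irradiated arrays and vertical lines the group means; the groups do not overlap in any of the 30 genes, which the choice of genes required.

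Among the falls, Akr1c14, a hydroxysteroid dehydrogenase, read -0.66, -0.88, 0.83 and -0.84 against -6.08, -5.42, -4.84 and -6.21 (-5.25 ± 0.45), and Prelp, a matrix proteoglycan, read -0.93, -1.15, -0.94 and -0.44 against -5.79, -4.43, -4.87 and -5.04 (-4.17 ± 0.29). Pimreg, a mitotic protein (-3.79 ± 0.31), and Agr3, a relative of the goblet protein Agr2 (-3.19 ± 0.38), fell. Acvr1c, an activin receptor (-3.45 ± 0.53), and Rgs7bp (-3.57 ± 0.63) fell with wide spreads after irradiation, and replicate 2 was the highest irradiated array in both. H2bc23, a histone gene, fell (-3.93 ± 0.58), with replicate 2 at -4.48 and the other 3 irradiated arrays at -6.46 or below. Hsd3b3, a steroid enzyme, fell (-3.23 ± 0.83), and its controls ran from -3.08 to 0.80. The Hsd3b3 call was lost when non-irradiated replicate 1 or 2 or irradiated replicate 1, 2 or 3 was left out (limma adjusted p 0.0523 to 0.0732). Fank1 was above background on no irradiated array, at least 8.59-fold lower. Akr1c14, H2bc23, Mycn and Rgs7bp were above background on 1 of 4 irradiated arrays and Prelp, Nts, Hsd3b3 and Smad6 on 2 of 4.

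In the LGR5lo sort the p53 and NF-kB lists again counted mostly rises and the mitosis lists falls, and few effects were called as different in size. In LGR5lo cells 2079 names were called (7.49%), 1241 higher (4.47%) and 838 lower (3.02%), and the median over all names was -0.13. These come from a fit over all 17 arrays, which called 3739 names in LGR5hi cells (1716 higher and 2023 lower), whereas the LGR5hi counts given above are from the fit over 8. Non-irradiated LGR5lo replicate 2 stands apart, with 95.6% of its spots above background, and without it 2534 names were called there. The p53 death genes gave 14 higher and 1 lower there, with a median of 1.89, and the NF-kB list 13 higher and none lower, with a median of 0.72. Of the regulators of mitotic entry 17 of 36 were called lower in LGR5lo cells (median -0.63), and of the kinetochore and spindle genes 20 of 62 (median -0.61). Without replicate 2 these counts were 14 and 1, 13, 20 and 27. No gene of either mitosis list was called for a difference between the sorts. Tested directly over all 17 arrays, the effect in LGR5hi minus that in LGR5lo was called for 11 names (0.0396%), 10 more positive and 1 more negative in LGR5hi. Deviations of same-numbered LGR5hi and LGR5lo arrays of an arm from their group means correlated at 0.13 to 0.46. A limma fit to the LGR5hi minus LGR5lo differences of replicates 1 to 4 left out non-irradiated LGR5lo replicate 5. It called 19 names, 8 of them among the 11. Gpx3, Gper1 and an unnamed transcript were not called with it (limma adjusted p 0.0512, 0.0682 and 0.0737). Wnt10a, given above with its bound, read -1.61, -0.56, -1.89 and -2.26 on the irradiated LGR5hi arrays, and its effect in LGR5lo was 1.84 ± 0.36. Since it was above background on none of 3 non-irradiated LGR5hi arrays, the size of its difference between the sorts rests on signals below background. Rai2, a retinoic acid-induced gene, rose by 5.42 ± 0.48 against 1.40 ± 0.39. Hhex, a homeobox gene, rose by 3.32 ± 0.49 in LGR5hi, from -6.55, -5.28, -4.55 and -6.19 to -2.75, -1.43, -2.12 and -2.98, and had a difference of -0.49 ± 0.42 in LGR5lo. Gpx3, a secreted glutathione peroxidase, rose by 3.78 ± 0.34 against 0.82 ± 0.29, Arc by 3.55 ± 0.26 against 0.88 ± 0.25 and Dapk1, a death-associated kinase, by 3.90 ± 0.24 against 1.49 ± 0.25. Trim47 (3.81 ± 0.24 against 0.60 ± 0.32), Gprc5b (3.25 ± 0.19 against 0.68 ± 0.24) and Btbd17 (2.66 ± 0.22 against 0.37 ± 0.24) followed the same order. Gper1, a membrane oestrogen receptor, fell in LGR5hi (-2.88 ± 0.21), with -1.43 ± 0.17 in LGR5lo. Hhex and Gpx3 were above background on 1 of 3 non-irradiated LGR5hi arrays, and Rai2 and Gprc5b on 2 of 3. The count of 11 fell to 0 when any of 7 single arrays was left out, namely non-irradiated LGR5hi replicate 1 or 2, non-irradiated LGR5lo replicate 1, irradiated LGR5hi replicate 3, or irradiated LGR5lo replicate 1, 3 or 4. It was 2 without irradiated LGR5hi replicate 1, 4 without non-irradiated LGR5hi replicate 4, 0 with median centring, 2 with slide as a block and 26 without non-irradiated LGR5lo replicate 2.

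**Figure D5:**
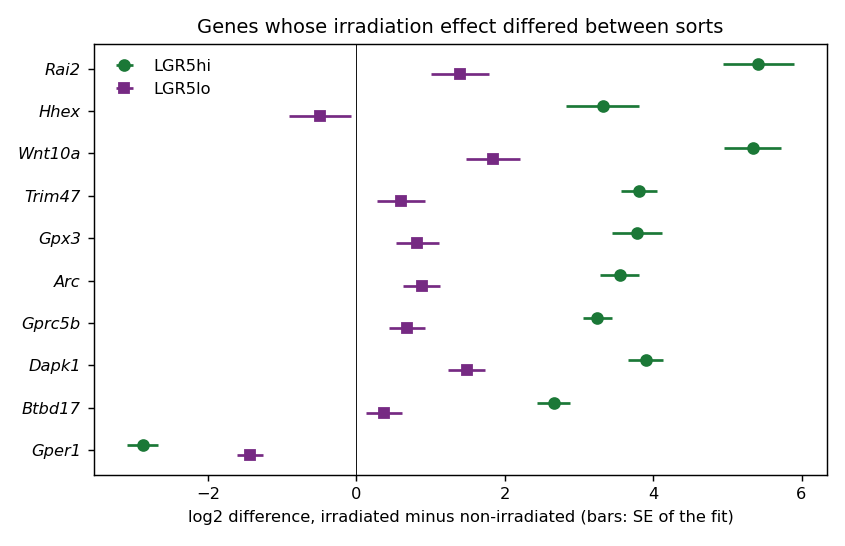
Log2 differences, irradiated minus non-irradiated, in LGR5hi cells (green circles, 4 against 4 arrays) and LGR5lo cells (purple squares, 4 against 5 arrays) for the 10 named genes whose effects limma called as different; bars are standard errors of each fit. In 9 genes the LGR5hi effect is the more positive, and in Gper1 it is the more negative. The LGR5hi value of Wnt10a rests on non-irradiated signals below background.

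No gene was called for a response that differed by sex. The effect in the 2 females against the 2 males of each group was called as different for 0 names by limma with 2 arrays per sex and arm, and 961 names had an unadjusted p under 0.05. With the same model and irradiated replicate 4 left out, 1 name was called. Hspa1a had a difference of 3.64 ± 0.51 log2, females minus males, and was not called (limma adjusted p 0.922).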

How the data were processed

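RNA of sorted LGR5hi and LGR5lo cells was measured on 17 Agilent arrays, read with Agilent Feature Extraction 10.7.3.1 per the submitters' processing notes. The values are the processed intensity signals of the deposited scanner files, whose probe positions are on mm9 per the labels. Spots flagged as outliers were dropped, replicate spots averaged, and log2 intensities taken relative to each array's 75th percentile over probes. For non-irradiated LGR5hi replicate 1 only 15329 of 62976 spots were readable, and the authors' deposited log2 values were used instead. Those are centred per probe, so the median offset of each probe on the other arrays was added back. Once a constant of 8.491 log2 for the array was allowed for, the rebuilt values matched the readable probes within 0.02 log2 in 99.48% of 13499 cases. Of 55681 probes, 41444 passed the scanner's test against background on 4 or more arrays, and 1 per gene name was kept, the one with the highest mean, which left 27768 names. Symbols were updated for 2878 probes through RefSeq tables, which 27325 probes matched by accession. Sequences are RefSeq promoters (GRCm38.p6).

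The main test was limma (version 3.58.1, R 4.3.3) over the 8 LGR5hi arrays, with Benjamini-Hochberg adjustment over all names and a threshold of 0.05. The difference between the sorts was fitted over all 17 arrays, as were the LGR5lo effects. The procedure was tested on simulated data. Genes were named by rule: the 15 largest called rises and falls among reviewed symbols whose groups do not overlap, the named genes called as differing between the sorts, up to 6 called genes per list, taken by smallest p (any member of lists with 16 or fewer tested), and a set of key genes. A few genes that the rule takes are not reported here. The members and lists were chosen with earlier results of these data known. Same-numbered LGR5hi and LGR5lo arrays of an arm had correlated deviations (0.13 to 0.46 for 8 pairs). Same-numbered irradiated and non-irradiated LGR5hi arrays gave -0.03 to 0.16 and differ in sex. Differently numbered arrays were not compared, so these values cannot settle which arrays the numbers pair. Scanner intensities give no read depth, and the number of arrays limits the precision. Alternatives covered background correction, scaling, filters, probe choice, covariates, blocks and left-out arrays.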

Additional observations from a re-analysis of the deposited data

Results flagged for a closer look

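Of 518 groups of 4 arrays examined for the genes named above, 29 (5.60%) had 1 array far from the other 3, measured as its gap to the nearest array divided by the group's range. Chance gives about 1 in 20 groups. In 14 of the 29 the array was irradiated replicate 2. It was the highest irradiated array for Tnfrsf10b (0.970), Aen (0.937), Notch3 (0.936), Dapk1 (0.917), Zmat3 (0.914), Rprm (0.907), Krt15 (0.896), Gpx3 (0.886), Ddb2 (0.867), Plk2 (0.852), Mdm2 (0.847) and Phlda3 (0.841), and the lowest for Csrnp1 (0.869) and Ier3 (0.863).

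In the other irradiated arrays, replicate 4 was lowest for Ccnd1 (0.851) and Gins2 (0.857) and highest for Ihh (0.871), replicate 3 was highest for Hspa4l (0.846), and replicate 1 was lowest for Pank1 (0.836). Among non-irradiated arrays, replicate 3 was lowest for Bcl2 (0.913), Fosl1 (0.875) and Mgmt (0.862) and highest for Akr1c14 (0.871) and Sesn1 (0.867). Replicate 2 was lowest for Errfi1 (0.868) and Hbegf (0.854) and highest for Neurog3 (0.938). Replicate 4 was lowest for Mdm2 (0.872), and replicate 1 was highest for Ddb2 (0.884).

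The effect of irradiation differed between the sorts by limma's test of the difference, LGR5hi minus LGR5lo, for 10 named genes. It was 4.02 log2 for Rai2, 3.81 for Hhex, 3.50 for Wnt10a, 3.21 for Trim47, 2.95 for Gpx3, 2.68 for Arc, 2.57 for Gprc5b, 2.41 for Dapk1, 2.29 for Btbd17 and -1.45 for Gper1. The adjusted p lay between 0.0241 and 0.0495. With same-numbered arrays of the sorts paired as a block, Gpx3 (limma adjusted p 0.0512) and Gper1 (0.0682) were not called. The value of Wnt10a rests on non-irradiated LGR5hi signals below background.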

How the results depend on the processing

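Every one of the 4801 called names kept its sign with quantile or median scaling, with no filter, with sex, slide or replicate number in the fit, and with any single array left out. With the deposited series values 4800 did, with the mean of a gene's probes 4790, with normexp 4682 (27735 names tested) and with a stricter filter 4670 (25958 tested). None was called in the opposite direction under any alternative. The names were called on these same arrays, so kept signs and directions are not separate support. The count moved by more than 1.5 times under 3: 2917 with normexp background correction over 7 arrays, 780 on slide 1 alone and 478 on slide 2 alone, where fewer arrays were fitted. The share of calls that were higher was 45.4% in the main analysis, 50.1% with normexp, 58.6% on slide 1 and 76.6% on slide 2. With single arrays left out it called 3468 to 4638 names. With the replicate number as a block it called 4312, although same-numbered arrays of these groups differ in sex. Without irradiated replicate 2 and non-irradiated replicate 1, an alternative added after seeing the data, the p53 death list had 14 rises, the NF-kB list 12 and the crypt base list 19 falls, while mitotic entry had 24, kinetochore and spindle 41, replication 13, homologous recombination 7, damage sensors 5, end joining 0 and ribosome biogenesis 5 rises.

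The count of 11 for the difference between the sorts was 0 with median centring, 26 without non-irradiated LGR5lo replicate 2, 2 with slide as a block, 14 with the replicate number as a block and 19 with that block set within each arm (added after seeing the data), and 0 to 13 with single arrays left out. The count of 0 for sex ranged from 0 to 1 with single arrays left out, and 961 names had an unadjusted p under 0.05. Signs turned for 10 genes, most of them not called. With single arrays left out Gls2 ranged from -0.22 to 0.06, H2-Ab1 from -0.32 to 0.10, Jun from -0.15 to 0.26, Sesn1 from -0.11 to 0.23 and Sis from -1.18 to 0.57. With normexp Alas2 read 0.03, Hrk 0.07 and Sptbn4 0.02. With array weights Sesn1 read -0.01. On slide 1 alone Ptprc read -0.28 and Trp73 -0.11, and on slide 2 alone Gls2 read 0.14, H2-Ab1 0.40, Sesn1 -0.14 and Sis 0.79. Without both arrays above H2-Ab1 read 0.13 and Sesn1 -0.17. The causes were not tested. Probes near background limit the folds of dim genes, and 33 names lacked a value on at least 1 array.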
